A study of Mus musculus with 18 samples.

Results

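The tibialis anterior, a fast muscle at the front of the lower hindlimb, was compared between limbs whose femoral artery had been ligated and the intact limbs of the other side in control mice, called WT here. The comparison covers all genes whose normalized counts averaged 10 or more across the 18 libraries of the series, 12262 of 20922. RNA was sequenced from 5 intact (replicates 2 to 6) and 4 ligated (replicates 2, 4, 5 and 6) WT muscles, taken at day 36 after surgery. All mice of the series carried floxed Bmal1 alleles (Bmal1fx/fx), and the labels give the WT controls the genotype ACTA-rtTA-TRE-Cre+/+ and the muscle-specific Bmal1 knockouts (BKO) -/-, which is the other way round from what the names say. Doxycycline was given by gavage on 3 consecutive days, and the arteries were ligated a week after the last dose. The protocol names the drug for the deletion and does not say in so many words that controls received it. The intact muscle comes from operated animals, so it is not tissue of unoperated mice. The labels do not say whether muscles with 1 number came from 1 mouse, or at what time of day they were taken, so the spread behind each p-value is that of these muscles and may in part be technical.

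Ligation of the femoral artery is used as a model of peripheral artery disease, in which narrowed arteries starve the leg muscles of blood. Ischaemic muscle fibres die and are rebuilt by satellite cells, the stem cells of muscle, while macrophages clear debris, fibroblasts lay down matrix and existing vessels enlarge or sprout. Where rebuilding is incomplete, fibro-adipogenic progenitors, resident cells of the muscle's connective tissue, can turn into scar or fat cells.

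The libraries held 14.1 to 21.1 M recovered reads, 18.1 ± 2.08 M (SD, n = 5) in intact and 18.4 ± 3.02 M (SD, n = 4) in ligated muscle, a difference within the spread between libraries (exact permutation p = 0.841, two-sided). Total RNA was sequenced, and the mitochondrial ribosomal RNA mt-Rnr2 alone took 31.9% to 34.3% of the reads in intact and 38.1% to 45.3% in ligated libraries. Skeletal muscle genes dominated the rest in both groups, with the titin gene Ttn, the fast myosin Myh4 and the skeletal actin Acta1 each at 88281 normalized counts or more in every WT library. The main principal component of the 9 WT libraries held 53.3% of the variance and separated all ligated from all intact libraries, and the next, with 8.95%, set intact replicate 3 apart. Below, group values are means of normalized counts ± SD over 5 intact and 4 ligated libraries. Fold changes are log2 of ligated over intact ± SE from limma on log2(value + 1), and adjusted p is Benjamini-Hochberg over all 12262 genes.

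Ligation was followed by a wide change of the transcriptome that was uneven in size. In ligated muscle 2295 genes were higher (18.7%) and 2585 lower (21.1%) at an adjusted p under 0.05, so 39.8% of the tested genes passed. The rises were larger: 716 genes rose (5.84%) and 423 fell (3.45%) by at least 2-fold, 134 and 75 by at least 4-fold, and 55 and 27 by at least 8-fold. The median fold of the genes that passed was 1.70 for rises and 1.48 for falls. The values of the 2 groups did not overlap at all for 3987 genes (32.5%), and 3724 of these passed. Leaving out any 1 WT library gave 1971 to 2193 genes higher and 2286 to 2492 lower. The balance between rises and falls rests on the scaling. With values rescaled to CPM over the reads of all genes (total scaling), 2961 genes were higher and 1111 lower. With CPM over reads outside the mitochondrially encoded genes (non-mitochondrial scaling), the numbers were 4434 and 1144, and these scalings shifted the median of all genes from -0.00 to 0.17 and 0.27. Of the called genes named below, Ttn and Vegfa lost the call in both scalings and none changed direction. Medians of the lists of slow fibre, dystrophin complex, autophagy, glycolysis, fatty acid oxidation, branched-chain amino acid and solute carrier genes turned from below 0 to above 0 in at least 1 of them. Counts of falls in a list shrank in these scalings too, and they are given beside the main ones where they bear on a direction. Such list counts are to be read against those of all 12262 genes in the same scaling. These were 2961 higher and 1111 lower in the total and 4434 higher and 1144 lower in the non-mitochondrial scaling.

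**Figure D1:**
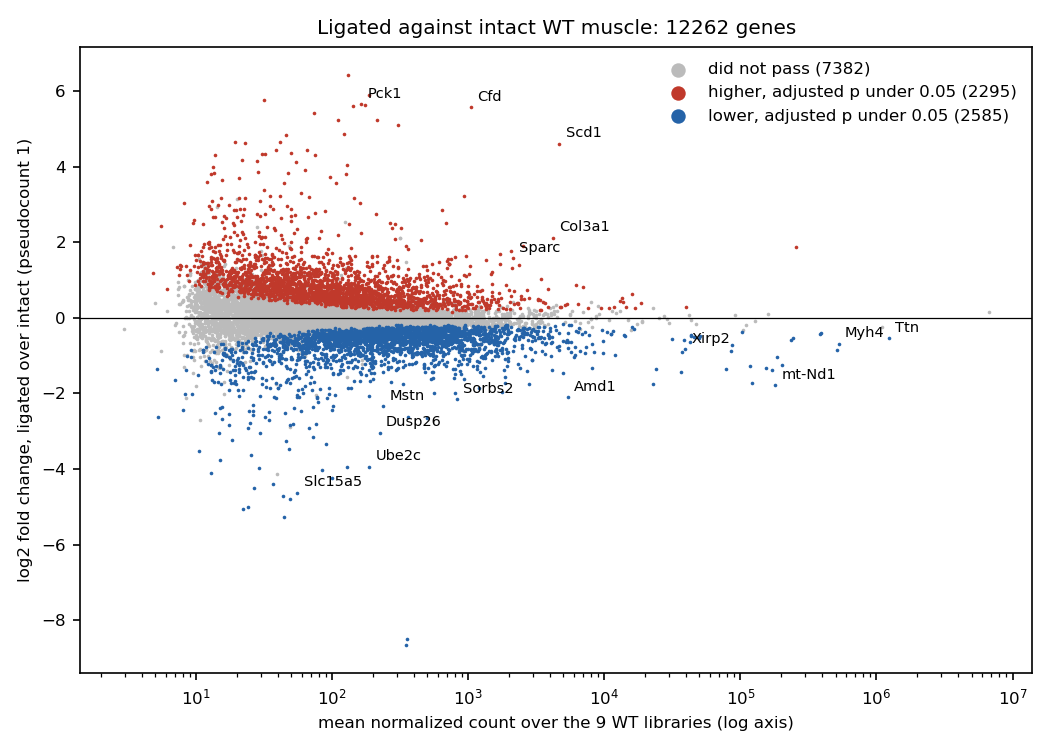
Log2 fold change (ligated over intact, y axis) of 12262 genes against their mean normalized count over the 9 WT libraries (x axis, log scale), with genes that passed in red (2295 higher) and blue (2585 lower) and the rest in grey. Fat genes such as Cfd and Pck1 lie among the steepest rises, while abundant genes such as Ttn, Myh4 and mt-Nd1 lie below 0.

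Falls were concentrated among the abundant genes. When the tested genes were divided by level into 5 groups of equal size, the share that fell grew from 6.44% in the lowest group (median 18.7 normalized counts) through 11.01%, 16.8% and 27.7% to 43.4% in the highest (median 690.1). The share that rose was 19.98% in the lowest group, then 21.5%, 20.3% and 16.9%, and 14.9% in the highest. Of 221 genes with a mean of at least 3000, 111 fell and 32 rose. Low genes carry more counting error, so their calls need larger changes, and the shares of the lowest groups are limited by that. Total exon length gave no such gradient: the share that fell was 19.6% to 23.1% over 5 groups by length. Chromosomes differed little, with the share of risers between 14.01% (chromosome 2) and 22% (chromosome 6) for the nuclear ones, and 9 of the 15 tested mitochondrially encoded genes fell. Small nucleolar RNAs, which guide the modification of ribosomal RNA, stood out among gene types: 22 of 43 rose and 5 fell. Processed pseudogenes went the other way, with 19 of 223 higher and 60 lower, and their reads may be shared with their parent genes.

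**Figure D2:**
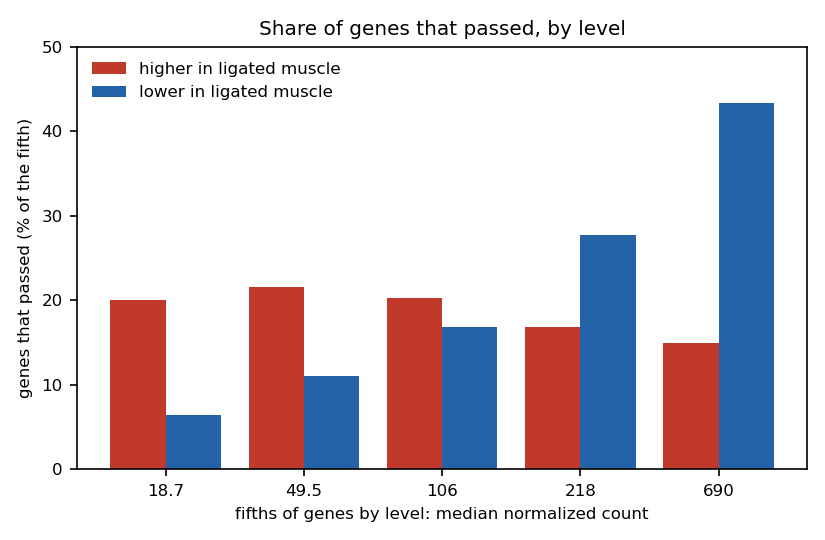
Share of genes that passed in 5 groups of the tested genes by level (x axis: median normalized count of the group; y axis: percent of its genes), red for higher and blue for lower in ligated muscle. The blue bars grow from 6.44% to 43.4% with level, while the red ones lie between 14.9% and 21.5%.

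Genes of fat rose steeply, with the highest median of all lists described here. Adipocytes store triglyceride in a single large droplet coated by perilipin 1, make fatty acids from glucose and citrate, and secrete adiponectin, leptin and adipsin. Of 20 listed adipocyte identity genes, 16 were tested and 13 rose, each by at least 2-fold, with a median log2 fold change of 3.82. Plin1, which encodes perilipin 1 (chromosome 7, 79720218 to 79732903, mm10), gave 10.3, 9.48, 1.97, 4.82 and 4.01 normalized counts in intact and 305, 378, 344 and 224 in ligated muscle. Every ligated library stood over 20 times above the highest intact one, and the group means went from 6.12 ± 3.62 to 313 ± 66.3 (log2 fold change 5.60 ± 0.47, adjusted p = 1.36e-08). Cfd, the gene of adipsin, went from 50.5 ± 25.9 to 2305 ± 662, and Adipoq, that of adiponectin, from 14.4 ± 11.8 to 461 ± 123. Cidec, whose product fuses lipid droplets, rose by 5.64 ± 0.45 on the log2 scale. The adipocyte transcription factors Cebpa (3.80 ± 0.26) and Pparg (2.69 ± 0.25) rose too, as did Trarg1, which takes part in insulin-driven glucose uptake (3.74 ± 0.26), and leptin (Lep, 3.84 ± 0.43). The fatty acid carrier Fabp4, which endothelium also makes, started higher and went from 729 ± 81.98 to 2099.98 ± 198. Summed over the 20 listed genes, the list gave 2439.9 to 3689 normalized counts in intact and 7968 to 10811 in ligated libraries. This sum includes Fabp4, so not all of it need come from adipocytes. In intact muscle the sum averaged 2966 normalized counts against the 729 of Fabp4, and the cell source of the rest was not tested. In bulk tissue, more cells of a type and more RNA per cell cannot be told apart. The brown fat marker Cidea had only 19 reads in the 5 intact and 18 in the 4 ligated libraries and was not tested.

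Lipid synthesis rose along with these markers. Of 19 tested lipogenic genes, 12 rose and 3 fell (median 1.62). Scd1, the desaturase that makes oleate (chromosome 19, 44394455 to 44407879), gave 574, 544, 248, 264 and 454 normalized counts in intact and 14443, 7449, 10162 and 7794 in ligated muscle. The lowest ligated value was over 10 times the highest intact value, and its gain of 9545 normalized counts was the largest of any called gene with a symbol. Fasn, fatty acid synthase, went from 186 ± 59.8 to 1861 ± 965, and Pck1, which makes the glycerol backbone of triglyceride in fat, went from 6.61 ± 4.06 to 358 ± 118 (log2 fold change 5.66 ± 0.49, adjusted p = 2.48e-08). Thrsp, a regulator of lipogenesis, rose by 2.20 ± 0.18 and the acetoacetate-activating enzyme Aacs by 3.31 ± 0.31. The citrate carrier Slc25a1, which exports the carbon for fatty acid synthesis from mitochondria, rose by 2.96 ± 0.47. Of 15 genes of lipolysis and lipid droplets, 8 rose and 3 fell, with the lipases Lipe (2.37 ± 0.20), Mgll (1.34 ± 0.11) and Pnpla2 (0.70 ± 0.11) and the droplet protein Plin4 (0.74 ± 0.12) higher. Other genes with steep rises were Cyp2f2 and Cyp2e1, which oxidize small molecules (5.42 ± 0.60 and 5.10 ± 0.37), the cysteine dioxygenase Cdo1 (5.25 ± 0.36), the haemoglobin scavenger haptoglobin (Hp, 4.88 ± 0.41), the protein kinase A subunit Prkar2b (4.45 ± 0.51) and the imprinted gene Nnat (3.92 ± 0.53).

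**Figure D3:**
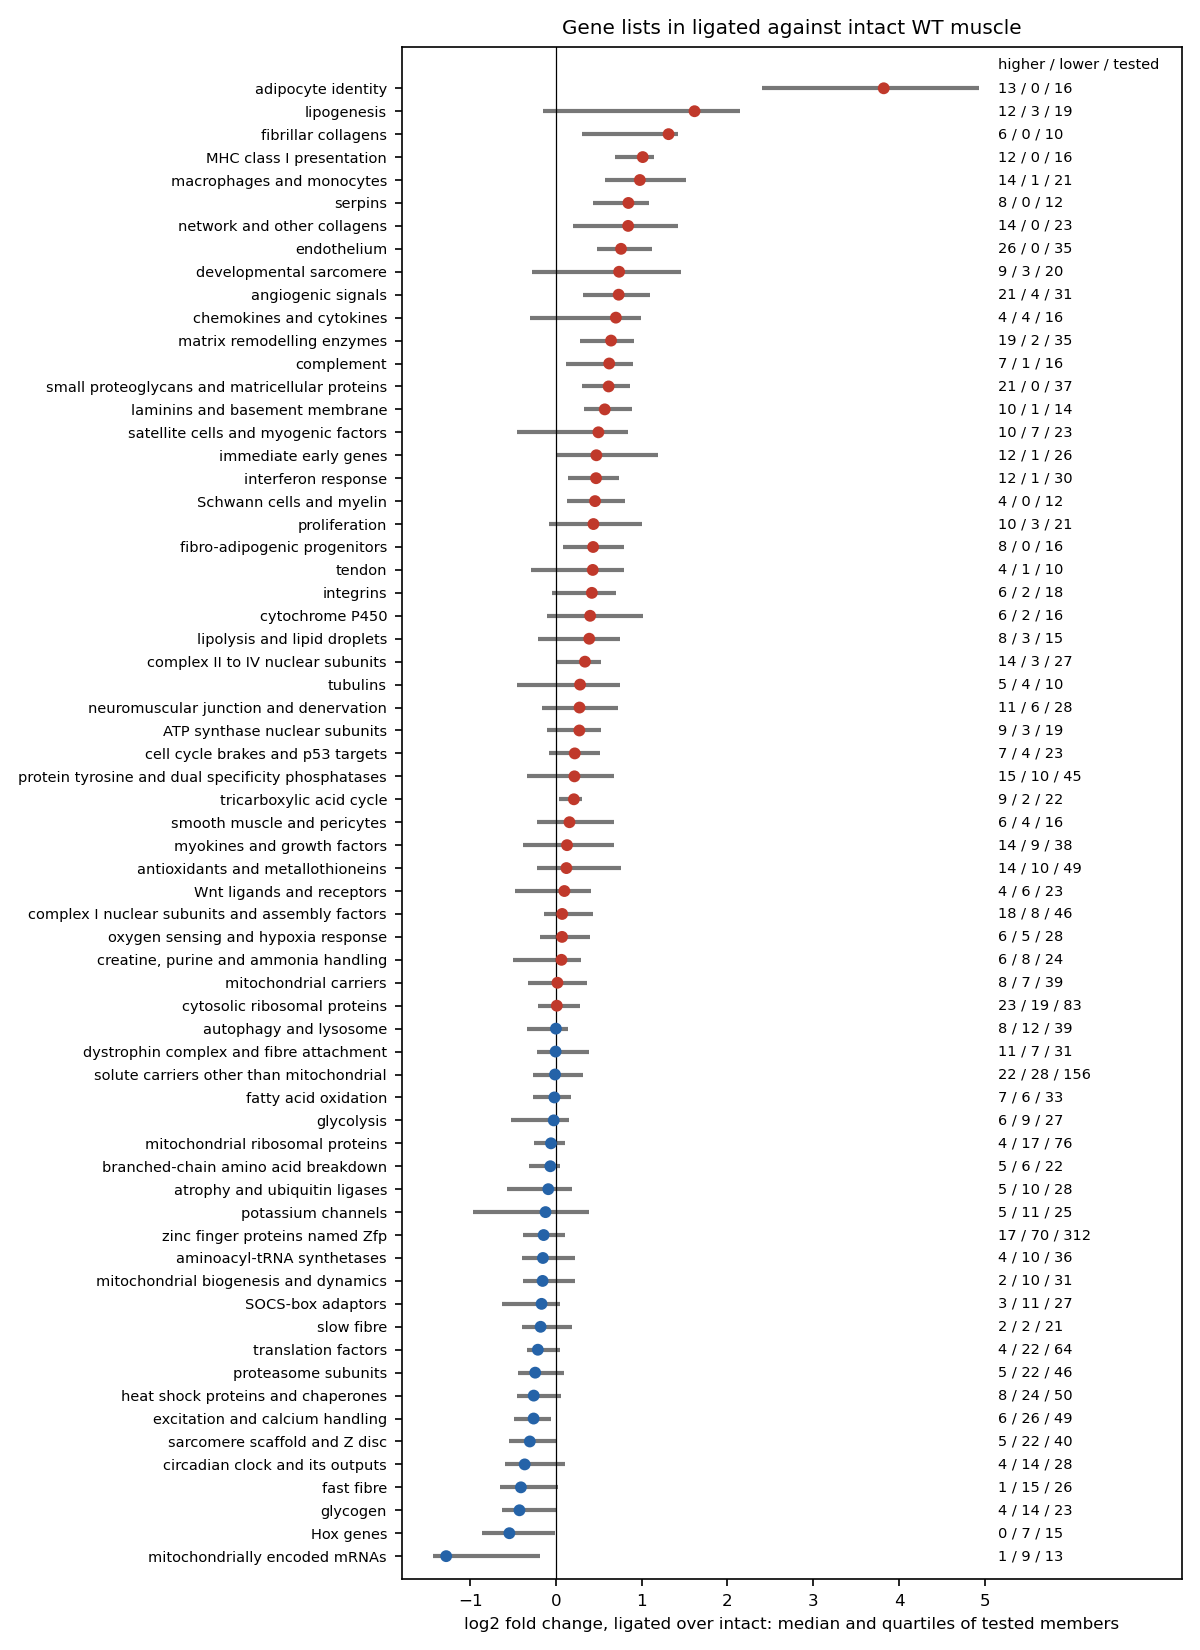
Median (dot) and quartiles (bar) of the log2 fold change of the tested members of each gene list with 10 or more tested members, ligated over intact WT muscle, with the numbers higher, lower and tested at the right. Adipocyte identity lies farthest to the right (median 3.82), followed by lipogenesis and fibrillar collagens, and mitochondrially encoded mRNAs lie farthest to the left (-1.28).

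Extracellular matrix genes rose broadly and almost without exception in direction. Fibrillar collagens form the tension-bearing fibres of connective tissue and type IV collagen the sheet around each fibre and vessel. Of 10 tested fibrillar collagens, 6 rose and 0 fell, and of 23 other collagens 14 rose and 0 fell. Col3a1 (chromosome 1, 45311538 to 45349706) gave 1383, 1884, 1795, 1716 and 1567 normalized counts in intact and 6975, 7258, 5879.98 and 9243 in ligated muscle. Its ligated values lay at more than 3 times the highest intact value (log2 fold change 2.13 ± 0.15, adjusted p = 1.33e-09). Col1a1 went from 1002 ± 241 to 3367 ± 300.3, Col4a1 from 1129.6 ± 114 to 4217 ± 559 and Col4a2 from 859 ± 137 to 2798 ± 532, and the rarer Col28a1 rose by 2.89 ± 0.35. Among proteoglycans and matricellular proteins 21 of 37 rose and none fell. Sparc, a collagen-binding matrix protein, went from 1132 ± 127 to 3373 ± 183 (1.58 ± 0.09, adjusted p = 1.15e-10), the cartilage-type protein Cilp from 156 ± 36.9 to 1239 ± 643, and elastin (Eln) rose by 1.99 ± 0.26. Basement membrane genes followed, with 10 of 14 higher and 1 lower, among them the nidogens Nid1 (0.90 ± 0.10) and Nid2 (0.96 ± 0.11). Of 35 matrix remodelling enzymes, 19 rose and 2 fell, led by the collagen crosslinker Loxl2 (1.41 ± 0.13), the protease Adamts12 (1.70 ± 0.16) and the collagen chaperone Serpinh1 (1.08 ± 0.12).

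Markers of the connective tissue cells rose as well. Of 16 markers of fibro-adipogenic progenitors, 8 rose and none fell (median 0.43), with Dpt at 1.11 ± 0.15, Cd34 at 0.79 ± 0.12, Gsn at 0.81 ± 0.13 and Col15a1 at 1.09 ± 0.21. The sum over these markers was 9713 to 11830.5 normalized counts in intact and 15475 to 17257 in ligated libraries, while the fibrillar collagens summed to 4396 to 5890.1 normalized counts in intact and 14909 to 19381 in ligated libraries. Tendon genes were mixed: 4 of 10 rose, among them tenomodulin (Tnmd, 1.97 ± 0.40) and Ctxn3 (1.37 ± 0.20), and 1 fell.

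Endothelial genes were higher in ligated muscle. The endothelium lines capillaries and larger vessels, and pericytes wrap the capillaries. Of 35 tested endothelial markers, 26 rose and none fell, with a median of 0.76, and the summed markers gave 8073 to 8739 normalized counts in intact and 12569 to 16489 in ligated libraries. Cldn5, a tight junction protein (chromosome 16, 18776847 to 18778262), gave 28.4, 31.98, 20.7, 19.3 and 33.1 normalized counts in intact and 119, 82.7, 92.3 and 99.6 in ligated muscle. The groups were fully separate (log2 fold change 1.86 ± 0.18, adjusted p = 1.11e-07). Pecam1, present on all endothelium, went from 446 ± 50.9 to 896 ± 125, the receptor kinase Tie1 from 162 ± 22.2 to 428 ± 76.2 and the junction protein Esam from 94.4 ± 13.4 to 223 ± 18.4, while Gpihbp1, which holds lipoprotein lipase on capillaries, rose by 1.11 ± 0.12. Among 31 angiogenic signals and receptors 21 rose and 4 fell. The apelin receptor Aplnr rose by 2.24 ± 0.19, Notch1 by 1.12 ± 0.13 and the VEGF co-receptor Nrp1 by 0.83 ± 0.09. Vegfa, the main growth factor of endothelium, gave 1379.6, 1069.5, 1121, 1288 and 1422 normalized counts in intact and 813, 1355, 878 and 917 in ligated muscle. These ranges overlapped. It passed as lower (-0.36 ± 0.13, adjusted p = 0.0291), but not when any 1 of intact replicates 2, 5 and 6 or ligated replicates 2, 5 and 6 was left out (adjusted p up to 0.117).

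Pericytes and smooth muscle did not move as 1 group. The pericyte genes Mcam (1.63 ± 0.13), Pdgfrb (1.01 ± 0.09) and Cspg4 (1.06 ± 0.11) rose, Pdgfrb from 375 ± 36.4 to 758 ± 77.8. Some contractile genes of arterial smooth muscle did not pass: Acta2 was 284 ± 37.3 in intact and 254 ± 48.4 in ligated muscle and Myh11 457 ± 18.4 in intact and 406 ± 93.1 in ligated muscle, with overlapping values. Their differences of -0.17 ± 0.16 (95% interval -0.50 to 0.15) and -0.19 ± 0.13 (-0.47 to 0.09) do not show that smooth muscle was equal, and without ligated replicate 4 Myh11 passed as lower (-0.34, adjusted p = 0.0377). Of 16 tested genes in the list, 6 rose and 4 fell, the latter including Synpo2 (-0.63 ± 0.09), which skeletal muscle also expresses at its Z discs.

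Immune genes rose as well, from low levels. Of 35 listed macrophage and monocyte genes 21 were tested, of which 14 rose and 1 fell, and the summed list went from 785 to 1065 in intact to 1548 to 1882 in ligated libraries. Lgals3, the galectin of activated macrophages, gave 11.6, 18.95, 2.96, 4.82 and 4.01 normalized counts in intact and 66.4, 40.7, 45.3 and 56.8 in ligated muscle. The groups did not overlap, although the intact values spread over a 6-fold range. Lysozyme (Lyz2) went from 162 ± 7.75 to 466 ± 45.9 and cathepsin K (Ctsk) rose by 1.28 ± 0.22. The faller was Cd163, the haemoglobin scavenger receptor of resident macrophages, which went from 76.7 ± 21.4 to 25.4 ± 4.22 (-1.53 ± 0.23, adjusted p = 1.9e-05). Antigen presentation rose: 6 of 7 class II genes, with H2-Aa at 1.64 ± 0.29, H2-Eb1 at 1.52 ± 0.30 and the invariant chain Cd74 at 1.36 ± 0.25, and 12 of 16 class I genes, with H2-D1 from 340.2 ± 59.7 to 943 ± 125, H2-K1 at 1.09 ± 0.22 and the peptide loader Tapbp at 0.83 ± 0.16. Interferon-stimulated genes were 12 higher and 1 lower of 30, among them Bst2 (1.67 ± 0.26), Irf7 (1.55 ± 0.31) and Ifitm3 (0.90 ± 0.15), and Ifi27l2a, from outside the list, went from 6.86 ± 2.32 to 159 ± 68.2.

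Markers of lymphocytes and granulocytes were near the detection limit. Only 5 of 31 lymphocyte and 4 of 21 granulocyte and mast cell genes reached the filter. Cd3e, a part of the T cell receptor complex, had 0 reads in the 5 intact and 9 in the 4 ligated libraries, and the neutrophil gene S100a8 had 2 and 0. Of the 5 tested lymphocyte genes 3 rose from a few reads and 1 fell. The risers were antibody genes of plasma cells: the light chain Igkc went from 2.83 ± 2.09 to 21.6 ± 14.7, the joining chain Jchain from 1.47 ± 1.39 to 10.6 ± 3.50 and the heavy chain Igha from 1.23 ± 1.71 to 16.6 ± 12.997. Igkc lost the call without ligated replicate 2 or 4, Jchain without intact replicate 2 or 5 or ligated replicate 2, and Jchain and Igha did not pass with edgeR. The faller was the more abundant heavy chain Ighm, which went from 284 ± 68.01 to 105 ± 37.4. Inflammatory cytokines were likewise scarce, with 3 and 1 reads of Il6 and 11 and 8 of Tnf. Of 16 tested chemokines and cytokines 4 rose and 4 fell, not far from the 18.7% higher and 21.1% lower of all genes. Among the risers Cx3cl1, which attracts monocytes, rose by 2.51 ± 0.34, Ccl6 by 1.81 ± 0.34 and Ccl21a by 2.09 ± 0.48. The lowest log2 fold change in the list was -0.84, and the summed list went from 1511 to 1631 normalized counts in intact to 1242 to 1441 in ligated libraries. In the complement system 7 of 16 genes rose, such as Cfb (1.48 ± 0.22), while clusterin (Clu), a chaperone that also inhibits complement, fell from 271 ± 26.6 to 84.9 ± 7.66. None of 6 tested blood cell genes passed with limma in the main scaling, edgeR or DESeq2, and 2 had an unadjusted limma p under 0.05. With limma in the total and in the non-mitochondrial scaling, 2 of the 6 were higher and 0 lower. The haemoglobin gene Hbb-bs was 950.3 ± 184 in intact and 956 ± 78.5 in ligated muscle.

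Genes that report on nerve supply changed in both directions. Denervated fibres are known to raise acetylcholine receptor subunits and myogenin. In the list of junction and denervation genes 11 of 28 rose and 6 fell. Sarcolipin (Sln), a peptide that uncouples the calcium pump (chromosome 9, 53850164 to 53854560), gave 3.87, 1.18, 0.985, 1.93 and 4.01 normalized counts in intact and 105, 21.7, 17.4 and 100.5 in ligated muscle. All ligated values exceeded all intact ones, with a wide spread in ligated muscle. The receptor subunit Chrna1 rose by 0.50 ± 0.14 and myogenin (Myog) by 0.98 ± 0.28. Falls were seen for the factor Dach2, which went from 64.8 ± 37.1 to 2.05 ± 1.93, the junction kinase Musk (-1.28 ± 0.21) and Gdap1, a mitochondrial protein linked to neuropathy (from 157 ± 18.01 to 30.8 ± 5.09). The list does not record which way denervation moves each gene, so its counts of rises and falls give no direction of nerve supply. Musk fell while Chrna1 and Myog rose, and whether fibres had lost their nerve was not tested. Utrophin (Utrn), the dystrophin relative of the junction, rose by 0.70 ± 0.09. Of 12 tested Schwann cell and myelin genes 4 rose and none fell, including Scn7a (1.19 ± 0.15), Erbb3 (0.75 ± 0.17) and Pmp22 (0.48 ± 0.11).

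Genes of regeneration gave mixed results, and stages of regeneration were not compared by a test. The stem cell factor Pax7 was 33.7 ± 8.90 in intact and 31.8 ± 8.72 in ligated muscle and the commitment factor Myod1 184 ± 37.5 in intact and 177 ± 34.95 in ligated muscle, and neither passed (95% intervals -0.74 to 0.56 and -0.37 to 0.27 on the log2 scale). Sarcomere genes of developing muscle were more often higher, with 9 of 20 up and 3 down. Mybph, a myosin-binding protein, gave 36.1, 22.5, 56.2, 57.8 and 25.1 normalized counts in intact and 317, 354, 261 and 305 in ligated muscle. Each ligated library was more than 4 times the highest intact one. The perinatal myosin Myh8 went from 41.6 ± 8.16 to 249 ± 85.7 and the cardiac actin Actc1 from 227 ± 94.3 to 1259 ± 361. By contrast Myh6, the atrial myosin, fell from 22.8 ± 14.9 to 1 read in a single ligated library and 0 in the others. Xirp2, an actin-binding repair protein with very high expression, fell from 48847 ± 2421 to 27588 ± 515. Among 23 satellite cell and myogenic genes, 10 rose, including the laminin receptor Itga7 (0.71 ± 0.10), and 7 fell, including the transcription factor Mef2d (-0.64 ± 0.09). Myomaker (Mymk) and myomixer (Mymx), which fuse myoblasts, were below the filter, with 1 and 0 reads in intact and 29 and 18 in ligated muscle.

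Genes of the fast-fibre contractile machinery were more often lower than higher in each scaling, by a margin that depended on it. Of 26 fast fibre genes 15 fell and 1 rose (median -0.41), against 6 lower and 2 higher in the total and 10 lower and 6 higher in the non-mitochondrial scaling (medians -0.23 and -0.13). Their summed counts went from 1741844 to 2047875 in intact to 1285922 to 1515682 in ligated libraries. Myh4, the myosin of the fastest IIB fibres (chromosome 11, 67238029 to 67260446), gave 581436, 763529.7, 631512, 652460 and 546111 normalized counts in intact and 372601, 387981, 441737 and 376188 in ligated muscle. The groups were separate but close, with a log2 fold change of -0.68 ± 0.12 (adjusted p = 0.000172). Troponin C (Tnnc2) went from 47117 ± 1657 to 25311 ± 2360.5, tropomyosin (Tpm1) from 107016 ± 7946 to 57726 ± 3435 and troponin T (Tnnt3) from 105039 ± 3944 to 63624 ± 5742, and the myosin light chain kinase Mylk2 fell by 0.79 on the log2 scale. The other adult myosins did not pass: Myh1 of IIX fibres was 115930.3 ± 22257 in intact and 91114 ± 6403 in ligated muscle, Myh2 of IIA fibres 7128 ± 2411 in intact and 9129 ± 1561 in ligated muscle, and the slow Myh7 134 ± 132 in intact and 91.3 ± 63.01 in ligated muscle. Their intervals reached from -0.88 to 0.22, -0.18 to 1.00 and -1.85 to 1.91, and those of Myh1 and Myh7 include the change of Myh4. The riser in the list was the light chain Mylpf, at 0.30 ± 0.10 (adjusted p = 0.023), whose ranges overlapped and whose call was lost without any 1 of intact replicates 2 and 6 and ligated replicates 2 and 5 (adjusted p up to 0.0932). The summed markers of fat, endothelium, fibro-adipogenic progenitors and macrophages given above rose in the same libraries, and their part in these falls was not tested. Slow fibre genes were mostly not called (2 higher and 2 lower of 21). Atp2a2, the slow-type calcium pump, rose from 243 ± 40.2 to 493 ± 54.5.

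**Figure D4:**
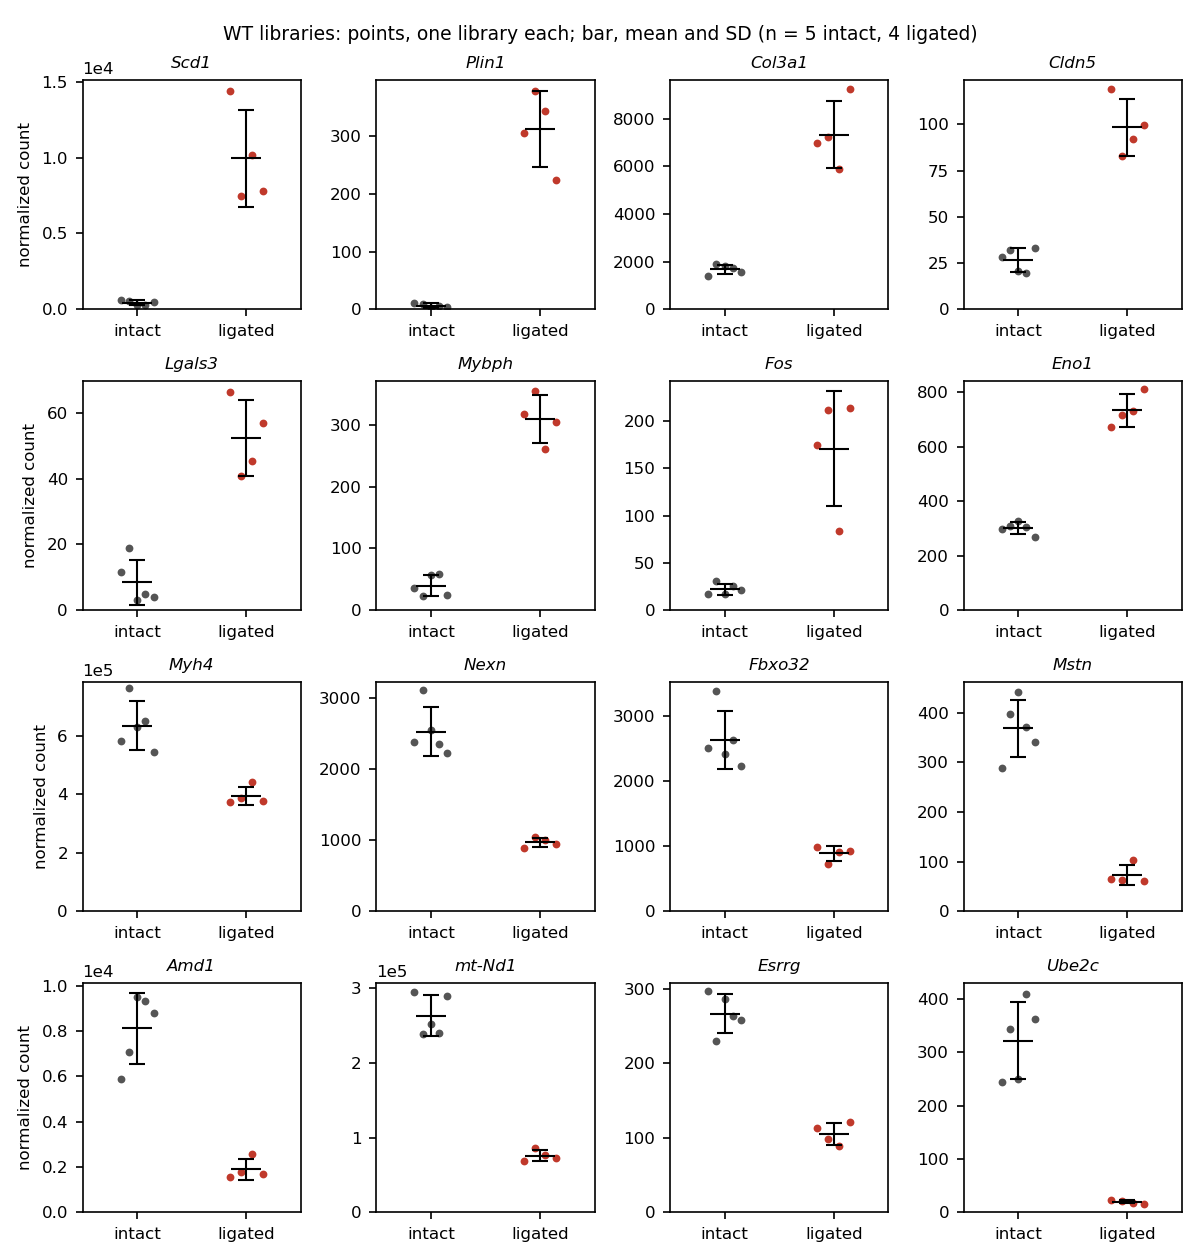
Normalized counts (y axis, linear from 0) of 16 genes in each WT library, intact in grey and ligated in red, with the mean and SD (n = 5 and 4). In all 16 panels the ligated and intact points do not overlap, with Scd1 rising to 7449 or more from at most 574 in intact muscle.

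Scaffold and membrane genes of the fibre changed in both directions, and the balance rests on the scaling. Of 40 genes of the sarcomere scaffold and Z disc 22 fell and 5 rose, against 8 lower and 8 higher in the total and 13 lower and 11 higher in the non-mitochondrial scaling. Nexn, an actin-binding protein of the Z disc, gave 2385, 3113, 2558, 2356 and 2231 normalized counts in intact and 885, 1043, 999 and 951 in ligated muscle. The groups did not overlap (-1.37 ± 0.10, adjusted p = 2.02e-09). Titin (Ttn) fell by 440282 normalized counts, more than any other called gene, going from 1423823 ± 134761 to 983542 ± 65171, although its call was lost in the total and non-mitochondrial scalings. Sorbs2, an adaptor of the Z disc, went from 1255 ± 118 to 280.3 ± 16.7 (-2.16 ± 0.11). Scaffold genes that rose included the Z-disc crosslinker Actn2 (from 4497 ± 528 to 8260.1 ± 1057) and the M-band protein Myom2 (from 11210.5 ± 817 to 16170.2 ± 1753). Excitation and calcium handling showed 26 falls and 6 rises in 49 genes, and its median of -0.26 turned to 0.01 in the non-mitochondrial scaling, where 9 higher and 11 lower were counted. The triad proteins Trdn (from 12287 ± 990.5 to 6479 ± 389.6) and Asph (-0.68 ± 0.07), the calcium-activated potassium channel Kcnma1 (-1.17 ± 0.12) and the kinase Camk2a (-0.80 ± 0.08) fell. Dystrophin (Dmd) did not pass (4119 ± 373 in intact and 4447 ± 234 in ligated muscle). In its complex and the fibre's attachment 11 of 31 rose, among them Anxa2, a membrane repair annexin (1.36 ± 0.09), and Sntb1 (1.86 ± 0.25), and 7 fell, among them Sgcd (-0.68 ± 0.09). Large scaffold genes outside these lists rose in value: Ahnak went from 12867 ± 782 to 20042 ± 509 and Plec from 11279 ± 1751 to 15388 ± 1108.

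Several abundant genes of protein breakdown and quality control fell, while the balance within their lists turned with the scaling. In the non-mitochondrial scaling the counts were 12 higher and 8 lower for proteasome subunits and 11 higher and 9 lower for chaperones. Atrophy genes gave 12 higher and 7 lower there, and autophagy and lysosome 16 higher and 6 lower. That scaling called 4434 of all 12262 genes higher and 1144 lower. Beside these shares, proteasome subunits and chaperones were less often higher and more often lower. The counts below are from the main scaling. Fbxo32, the atrophy ligase atrogin-1 (chromosome 15, 58175879 to 58214932), gave 2505, 3391, 2418, 2635 and 2229 normalized counts in intact and 988, 735, 907 and 929 in ligated muscle. Every ligated value was under 45% of the lowest intact one, for a log2 fold change of -1.56 ± 0.14 (adjusted p = 4.07e-08). The ligase adaptor Asb2 went from 4068 ± 739 to 1191 ± 119, Fbxo40, which targets an insulin receptor substrate, from 3867 ± 624 to 1779 ± 353, and Trim63, the ligase MuRF1, from 1079 ± 119 to 682 ± 95.7. Of 28 atrophy genes 10 fell and 5 rose, with a median of -0.09 that became 0.09 and 0.19 in the total and non-mitochondrial scalings. Proteasome subunits were 22 lower and 5 higher of 46 (median -0.24, 0.03 in the non-mitochondrial scaling), led by the ATPase Psmc3 (-0.89 ± 0.09) and the lid subunit Psmd8 (-1.08 ± 0.11), with the core subunit Psma3 at -0.64 ± 0.07. Chaperones were 24 lower and 8 higher of 50 (median -0.26, 0.02 in the non-mitochondrial scaling), with Hspb6 from 6957 ± 921 to 2495 ± 129, Hspa1l (-1.86 ± 0.20), Hspb8 (-0.83 ± 0.09) and Hsp90ab1 (-0.63 ± 0.08). In autophagy and lysosome 12 of 39 fell, such as the receptor Sqstm1 (from 3880.3 ± 186 to 2088 ± 169.6), the protease Ctsd (-0.53 ± 0.06) and the cholesterol exporter Npc1 (-1.10 ± 0.12), and 8 rose, such as Map1lc3a (0.99 ± 0.11) and Npc2 (0.93 ± 0.10).

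Myostatin, the muscle's own brake on growth, fell steeply. Mstn (chromosome 1, 53061640 to 53068079) gave 289, 398, 441, 372 and 340.2 normalized counts in intact and 65.6, 62.4, 103 and 61.8 in ligated muscle. The highest ligated value was under 40% of the lowest intact value (-2.34 ± 0.15, adjusted p = 6.56e-10). Smad3, a transducer of its signal, went from 903 ± 109.7 to 471 ± 57.002. Of 38 myokines and growth factors 14 rose and 9 fell, with the IGF-binding proteins Igfbp3 (1.28 ± 0.11) and Igfbp7 (1.00 ± 0.10) among the risers.

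Some genes of polyamine metabolism fell. They were not a list of their own, and the sentences name fallers from a wider list, plus Smox, which was chosen after its values were seen. Polyamines are small cations made from ornithine by Odc1 and, with decarboxylated S-adenosylmethionine from Amd1, extended to spermine by Sms. Amd1, itself abundant in intact muscle (chromosome 10, 40287458 to 40302186), gave 5877, 7088, 9487, 9335 and 8788 normalized counts in intact and 1557, 1779, 2598 and 1697 in ligated muscle. The highest ligated value was under 45% of the lowest intact one (-2.09 ± 0.17, adjusted p = 1.11e-08). Odc1 gave 588, 580.4, 831, 769 and 1014 normalized counts in intact and 305, 249.5, 256 and 297 in ligated muscle. It fell as well (-1.42 ± 0.15), as did Sms (from 933 ± 65.6 to 387 ± 35.003, -1.27 ± 0.12) and Smox, an enzyme that breaks spermine down (from 1321 ± 326 to 611 ± 93.1). Amd2, a near copy of Amd1, fell by 2.47 on the log2 scale, and reads of the 2 genes cannot be separated with certainty. In the same list the AMP nucleotidase Nt5c1a went from 100.1 ± 10.3 to 39.8 ± 12.5, and over the list of creatine, purine and ammonia genes 6 of 24 rose and 8 fell (12 higher and 6 lower in the non-mitochondrial scaling).

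Glycogen genes were more often lower than higher in each scaling. Muscle glycogen is the local glucose store of fast fibres. Of 23 glycogen genes 14 fell and 4 rose (median -0.43), against 6 lower and 4 higher in the total and 9 lower and 6 higher in the non-mitochondrial scaling (medians -0.26 and -0.17). Ppp1r3c, a targeting subunit that promotes glycogen synthesis, gave 1102, 1246, 1171, 1496 and 1145 normalized counts in intact and 364, 475, 471 and 435 in ligated muscle. The 2 ranges were far apart (-1.50 ± 0.16, adjusted p = 3.05e-07). The phosphorylase kinase subunit Phka1 (from 9052 ± 395 to 5290.1 ± 388), the muscle targeting subunit Ppp1r3a (from 11633 ± 1128 to 7532 ± 325) and the lysosomal glucosidase Gaa (from 2069.8 ± 274 to 1077 ± 63.2) fell as well. In glycolysis 9 of 27 fell, including Pfkfb4 (-0.96 ± 0.12), Gpd2 (-0.65 ± 0.09) and Fbp2 (-0.98 ± 0.15), and 6 rose, against 5 lower and 7 higher in the total and 5 lower and 14 higher in the non-mitochondrial scaling. Among the risers Eno1, the enolase of non-muscle cells and young muscle, gave 299, 308, 328, 304 and 269 normalized counts in intact and 669.9, 716, 732 and 813 in ligated muscle. Its values separated cleanly (1.28 ± 0.08, adjusted p = 5.69e-10).

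Enzymes of fatty acid, branched-chain and citrate metabolism changed in both directions. Of 33 genes of fatty acid oxidation 7 rose and 6 fell, against 1 lower and 9 higher in the total and 1 lower and 16 higher in the non-mitochondrial scaling. Over all tested genes 18.7% were higher and 21.1% lower in the main scaling, shares near those of this list. Cpt1a, which admits fatty acids to mitochondria outside muscle's own isoform, rose by 0.76 ± 0.12, Acsl5 by 0.96 ± 0.19 and Echs1 by 0.51 ± 0.09, while the muscle fatty acid carrier Fabp3 went from 1983 ± 810.2 to 868 ± 166 with overlapping values. For branched-chain amino acids 5 rose and 6 fell of 22, also not far from the shares of all genes (9 higher and 1 lower in the non-mitochondrial scaling). Pcca was down (-0.99 ± 0.14) and Hibadh up (0.37 ± 0.07). Citrate-cycle genes leaned upward, 9 higher and 2 lower of 22, with Mdh2 (from 2724 ± 133 to 3855 ± 455), Sdha (0.35 ± 0.07) and Sdhd (0.56 ± 0.13) higher.

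Mitochondrial RNA split by genome. The mitochondrial genome encodes 13 respiratory-chain proteins and its own ribosomal RNAs, and nuclear genes supply all other subunits. Of the 13 mitochondrially encoded mRNAs 9 fell, 8 of them by at least 2-fold, and 1 was called higher. That gene, mt-Co2, was listed at 0 in all 5 intact libraries and in ligated replicate 4, and at 579, 314 and 291 in ligated replicates 2, 5 and 6. Its fitted log2 change (6.42 ± 1.76) exceeded that of every fat gene, but a value of 0 for a gene that every cell uses can be a failed assignment of reads, and near-identical nuclear copies exist. Their share of all reads fell from 9.35% ± 0.848 (SD, n = 5) to 4.57% ± 0.127 (SD, n = 4), with an exact two-sided permutation p of 0.0159, the smallest this design allows. mt-Nd1, a complex I subunit, gave 295309.8, 239266, 252767, 240222 and 289655 normalized counts in intact and 69373, 86043, 76676 and 72504 in ligated muscle. The highest ligated value was below 40% of the lowest intact one (-1.79 ± 0.11, adjusted p = 2.7e-10). mt-Nd2 (-1.73 ± 0.14), mt-Nd4 (-1.33 ± 0.14), mt-Cytb (-1.24 ± 0.13) and mt-Co1 (from 638070.2 ± 66109 to 351474 ± 12717) fell too. The ribosomal RNAs did not pass: mt-Rnr2 was 0.15 ± 0.22 (95% interval -0.31 to 0.60) and mt-Rnr1 -0.24 ± 0.18 (-0.61 to 0.13). As a share of reads mt-Rnr2 rose from 32.8% ± 1.11 (SD, n = 5) to 41.1% ± 3.20 (SD, n = 4), also at the smallest p of 0.0159.

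Nuclear subunits of the respiratory chain leaned the other way. Of 27 subunits of complexes II to IV 14 rose and 3 fell, of 19 of ATP synthase 9 and 3, and of 46 complex I subunits and assembly factors 18 and 8. Atp5e gave 578, 528, 649, 601 and 683 normalized counts in intact and 1367, 1182, 1463 and 1375 in ligated muscle. The ligated values were above the intact ones with no overlap (1.15 ± 0.08, adjusted p = 2.3e-09). Atp5k (1.10 ± 0.13), Ndufa2 (0.94 ± 0.09), Ndufb11 (0.63 ± 0.08), Uqcrfs1 (0.73 ± 0.09), Uqcrq (0.72 ± 0.09) and Cyc1 (0.68 ± 0.09) rose, and Ndufa12 (-0.72 ± 0.08) and the striated muscle subunit Cox6a2 (from 5768 ± 932 to 3187 ± 316) fell. Several regulators of mitochondrial supply fell: Ppargc1a, the coactivator PGC-1 alpha, went from 691 ± 123 to 355 ± 49.2, its nuclear receptor partners Esrrg from 267 ± 26.1 to 105 ± 14.3 and Esrrb from 40.98 ± 12.2 to 7.21 ± 4.30, Rxrg from 274 ± 36.9 to 119 ± 9.63 and Gabpa from 477 ± 60.7 to 259.8 ± 23.5. In that list 10 of 31 fell and 2 rose, with a median of -0.16 that became 0.02 and 0.11 in the total and non-mitochondrial scalings, the latter with 10 higher and 7 lower. Mitochondrial carriers were 8 up and 7 down of 39, near the 18.7% higher and 21.1% lower of all genes (14 higher and 1 lower in the non-mitochondrial scaling). The ADP/ATP carrier Slc25a5 (0.88 ± 0.12) and Ucp2 (1.61 ± 0.27) were higher and the iron carrier Slc25a28 (-0.98 ± 0.14) lower.

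Translation genes were divided. Of 83 cytosolic ribosomal proteins 23 rose and 19 fell, from Rpl3 at 0.94 ± 0.10 to Rps26 at -0.92 ± 0.10. Reads of these genes can be shared with their many pseudogenes. The elongation factor Eef1a1 rose (from 2329.8 ± 70.8 to 4779.8 ± 266), while the initiation factor Eif4g2 fell (from 7691 ± 615 to 3729 ± 282), and over 64 translation factors 4 rose and 22 fell. Aminoacyl-tRNA synthetases were 10 lower and 4 higher of 36, with Aars at -0.80 ± 0.08, and mitochondrial ribosomal proteins 17 lower and 4 higher of 76. Over all tested genes 21.1% were lower and 18.7% higher. Mitochondrial ribosomal proteins thus fell about as often as genes at large and rose less often. The medians of the translation factor, synthetase and mitochondrial ribosomal lists, -0.21, -0.15 and -0.06, became 0.06, 0.12 and 0.22 in the non-mitochondrial scaling. There the counts were 12 higher and 7 lower for translation factors, 13 higher and 4 lower for synthetases, 22 higher and 3 lower for mitochondrial and 44 higher and 5 lower for cytosolic ribosomal proteins.

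Immediate early genes were higher. Fos and its relatives form the AP-1 factor and answer stress and growth signals within minutes. Of 26 tested 12 rose and 1 fell. Fos gave 16.8, 30.8, 16.8, 25.04 and 21.1 normalized counts in intact and 174, 212, 83.6 and 213 in ligated muscle. The lowest ligated library still exceeded 2 times the highest intact one (2.84 ± 0.25, adjusted p = 2.75e-08). Fosb (3.71 ± 0.62), Fosl2 (0.77 ± 0.11), Jund (1.01 ± 0.15) and Btg2 (1.20 ± 0.14) rose, and Jun did not pass (-0.24 ± 0.13, 95% interval -0.51 to 0.03). In the hypoxia list 6 of 28 rose and 5 fell, shares not far from those of all genes (14 higher and 0 lower in the non-mitochondrial scaling), with Eno1 and the mTOR inhibitor Ddit4 (1.08 ± 0.23) among the risers. Antioxidant and iron genes were 14 higher and 10 lower of 49, including transferrin (Trf, from 96.8 ± 36.6 to 528 ± 157), the ferritin chain Ftl1 (1.11 ± 0.10) and Gpx8 (1.68 ± 0.25) upward and Mgst3 (-0.72 ± 0.11) downward.

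Cell cycle genes moved in opposite directions. Ube2c, a ubiquitin-conjugating enzyme known for mitotic exit, gave 245, 343, 249, 409 and 362 normalized counts in intact and 22.7, 21.7, 18.3 and 16.5 in ligated muscle. All ligated values were below 10% of the lowest intact value (-3.94 ± 0.83, adjusted p = 0.000719, with an error pooled over the 4 groups of the series). The mitotic kinase Aurka (from 51.6 ± 8.20 to 7.87 ± 3.21) and its activator Tpx2 (from 44.4 ± 11.7 to 10.2 ± 4.20) fell with it. Several other mitotic genes were below the filter and did not fall as a set. Cdk1 had 0 reads in the 5 intact and 13 in the 4 ligated libraries, Top2a 31 and 57, Ccnb1 3 and 4 and Plk1 6 and 3. The falls of Ube2c, Aurka and Tpx2 therefore do not stand for cell division as a whole. The proliferation marker Mki67 rose from 8.09 ± 4.07 to 26.8 ± 11.9, as did the early cell cycle genes Ccnd2 (1.01 ± 0.14) and Cdk6 (1.27 ± 0.26), and over the list 10 of 21 rose and 3 fell. Among brakes and p53 targets 7 of 23 rose, such as Plk2 (1.17 ± 0.12), and 4 fell, such as the abundant Ccng1 (from 8262 ± 466 to 4549 ± 439).

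Several core clock genes were lower at the time of collection. BMAL1 (gene Arntl) and CLOCK bind E-boxes and drive their own repressors, and levels vary with the hour, which the labels do not give. Of 28 clock and output genes 14 fell and 4 rose, against 9 lower and 4 higher in the total and 8 lower and 7 higher in the non-mitochondrial scaling. Arntl went from 56.3 ± 11.8 to 16.2 ± 2.72 (-1.73 ± 0.18), Clock from 463 ± 23.9 to 308 ± 19.3, the activator Rora from 1999 ± 96.1 to 1110.2 ± 54.1 and the repressor Bhlhe41 from 921 ± 163 to 409 ± 75.1, while the output factor Dbp was 721 ± 84.8 in intact and 751 ± 85.2 in ligated muscle and did not pass.

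The starts of a few fallen genes are printed to show the motifs searched beside their values: 250 bases before the first start listed by RefSeq on GRCm38.p6, on the coding strand, chosen after matches were seen. The E-box CACGTG, which reads the same on both strands and is the site known to bind BMAL1-CLOCK, is in capitals in the first 3 sequences. It lies 153, 104 and 23 bases before the start of Bhlhe41, Ppp1r3c and Asb2.
Bhlhe41 (chr6:145865421-145865670, minus strand): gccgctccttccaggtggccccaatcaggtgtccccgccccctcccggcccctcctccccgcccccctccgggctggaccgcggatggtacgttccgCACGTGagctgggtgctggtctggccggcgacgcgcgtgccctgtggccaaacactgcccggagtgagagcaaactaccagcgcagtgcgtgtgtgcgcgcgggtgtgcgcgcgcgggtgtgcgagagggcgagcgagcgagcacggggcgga
Ppp1r3c (chr19:36736605-36736854, minus strand): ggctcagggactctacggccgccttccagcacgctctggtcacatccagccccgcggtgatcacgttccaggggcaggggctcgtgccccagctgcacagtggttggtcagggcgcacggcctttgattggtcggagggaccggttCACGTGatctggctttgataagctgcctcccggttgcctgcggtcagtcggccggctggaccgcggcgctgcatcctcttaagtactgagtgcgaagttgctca
Asb2 (chr12:103356002-103356251, minus strand): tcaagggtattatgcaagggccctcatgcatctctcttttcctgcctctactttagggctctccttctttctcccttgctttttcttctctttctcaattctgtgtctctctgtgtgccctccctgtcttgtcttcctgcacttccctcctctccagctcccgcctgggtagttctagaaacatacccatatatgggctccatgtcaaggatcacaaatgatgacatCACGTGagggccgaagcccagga
CACGTG is present in 6.05% of the 27025 promoters of the table at this length. The next pair shows the mitotic genes Ube2c and Aurka with CCAAT, or its reverse ATTGG, in capitals: 6 matches in Ube2c, 2 of which overlap, and 2 in Aurka.
Ube2c (chr2:164769679-164769928, plus strand): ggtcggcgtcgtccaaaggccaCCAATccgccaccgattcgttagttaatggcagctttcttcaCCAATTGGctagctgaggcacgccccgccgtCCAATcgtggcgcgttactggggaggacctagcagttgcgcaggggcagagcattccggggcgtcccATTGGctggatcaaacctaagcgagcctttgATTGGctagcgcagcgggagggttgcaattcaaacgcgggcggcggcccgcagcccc
Aurka (chr2:172370571-172370820, minus strand): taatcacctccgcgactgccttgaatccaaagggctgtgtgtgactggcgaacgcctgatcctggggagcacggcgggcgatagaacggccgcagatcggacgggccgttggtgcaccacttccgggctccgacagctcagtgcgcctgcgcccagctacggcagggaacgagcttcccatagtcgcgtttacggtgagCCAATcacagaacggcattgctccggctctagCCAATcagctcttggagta
At least 1 CCAAT stands in 34.5% of the promoters. Xirp2, which fell by 21259 normalized counts, holds the 10-base MEF2 motif in capitals 74 bases before its start, a sequence found in 0.107% of promoters on either strand.
Xirp2 (chr2:67445752-67446001, plus strand): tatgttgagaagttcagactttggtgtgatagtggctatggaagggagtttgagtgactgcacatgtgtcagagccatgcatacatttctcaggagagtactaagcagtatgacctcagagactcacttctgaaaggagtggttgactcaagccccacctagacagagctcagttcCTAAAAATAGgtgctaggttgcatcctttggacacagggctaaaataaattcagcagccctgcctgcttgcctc
A match is a stretch of letters and does not show that a factor binds there.

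Other gene families, set beside the 18.7% higher and 21.1% lower of all genes, gave mixed results. Hox genes, which keep the positional identity of limb cells, fell in 7 of 15 cases and rose in none, with Hoxa13 from 58.3 ± 13.2 to 13.8 ± 7.20, Hoxc10 from 518 ± 51.1 to 271 ± 14.9 and Hoxa9 at -0.80 ± 0.16. Zinc finger genes named Zfp were 70 lower and 17 higher of 312, from Zfp652 (-1.07 ± 0.09) to Zfp703 (1.23 ± 0.14), a share of falls near that of all genes, and their median of -0.14 became 0.03 and 0.13 in the total and non-mitochondrial scalings, the latter with 43 higher and 26 lower. Potassium channel genes were 11 lower and 5 higher of 25, with Kcng4 (from 389 ± 53.1 to 119 ± 24.1) and Kcnn2 (-1.60 ± 0.19) down, although the median changed sign from -0.12 to 0.05 and 0.15 in those scalings (5 higher and 7 lower in the latter). The SOCS-box adaptors counted 11 falls and 3 rises in 27, including Asb4 (from 117 ± 9.02 to 26.9 ± 4.44), with a median of -0.17 that became 0.01 and 0.11 (7 higher and 7 lower in the latter). Of 10 tubulins 5 rose and 4 fell: Tuba8, the muscle isoform, went from 1775 ± 144 to 491 ± 90.8, while Tuba1b (1.10 ± 0.15) and Tubb2a (1.12 ± 0.17) rose. Of 18 integrins 6 rose and 2 fell, with Itga5 (1.13 ± 0.17) higher and Itga4 (-1.36 ± 0.19) lower. Phosphatases were 15 higher and 10 lower of 45, with Dusp26 from 366 ± 37.7 to 44.05 ± 7.99 and Dusp4 from 8.85 ± 2.53 to 40.2 ± 2.97. In Wnt signalling 4 of 23 rose and 6 fell, near the shares of all genes, the fallers including the secreted Dkk3 (from 123 ± 33.4 to 17.1 ± 6.82), the ligand Wnt4 (-1.31 ± 0.23) and the receptor Lgr4 (-0.83 ± 0.09). Serpins were 8 higher of 12 and none lower, with Serpina3c at 3.10 ± 0.47.

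Steep falls were also found outside the lists. The farthest points were copies of a small RNA named Gm26244 and Gm24924, whose reads cannot be assigned to 1 copy, seen after the values. Slc15a5, a member of the peptide transporter family, gave 117, 22.5, 58.1, 106 and 185 normalized counts in intact and 0.810, 2.71, 5.22 and 1.65 in ligated muscle. No ligated value reached 25% of the lowest intact one (-4.62 ± 0.44, adjusted p = 8.09e-08). Cyp4f39, which hydroxylates very long fatty acids, went from 145 ± 22.7 to 8.66 ± 4.81, the small G protein Rasd2 from 220.4 ± 31.6 to 13.5 ± 3.58, the amino acid transporter Slc38a4 from 786 ± 162 to 126 ± 35.4, the phospholipase Pla2g7 from 572 ± 91.9 to 92.5 ± 18.6 and the sodium/calcium exchanger Slc8a1 from 283 ± 22.5 to 93.4 ± 17.6. Lrtm2 (-2.92 ± 0.44), the transport ATPase Atp13a5 (-2.81 ± 0.32), the phosphatase inhibitor Ppp1r1a (-2.43 ± 0.37), Nhs (-2.38 ± 0.23) and the cadherin relative Fat3 (-2.21 ± 0.24) also fell more than 4-fold. Across the 156 tested solute carriers outside mitochondria 28 fell and 22 rose, both below the share among all genes, and the non-mitochondrial scaling gave 47 higher and 15 lower.

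The ligation effect differed from that in BKO muscle for a limited set of genes. The same comparison in BKO muscle (5 intact, 4 ligated) called 2713 genes higher (22.1%) and 3077 lower (25.1%). Of the WT calls, 3359 passed in the same direction in BKO and 63 in the opposite one. The difference of the 2 effects passed for 737 genes (6.01%), 373 more positive and 364 more negative in BKO. This count was 402 without ligated replicate 2 and 461 without ligated replicate 5, so it rests partly on those libraries. Actc1 differed most clearly by direction, at 2.51 ± 0.32 in WT and -0.92 ± 0.32 in BKO (difference -3.43 ± 0.45, adjusted p = 0.000479). Mybph (3.03 ± 0.23 against 1.43 ± 0.23) and Lgals3 (2.75 ± 0.37 against 0.34 ± 0.37) rose more in WT. Sorbs2 (-2.16 ± 0.11 against -0.80 ± 0.11), Slc38a4 (-2.64 ± 0.16 against -1.09 ± 0.16), Dkk3 (-2.81 ± 0.33 against -0.44 ± 0.33), Ppp1r3c (-1.50 ± 0.16 against -0.37 ± 0.16) and Bhlhe41 (-1.17 ± 0.14 against -0.01 ± 0.14) fell more in WT, and Dusp26 fell less (-3.04 ± 0.21 against -4.77 ± 0.21). The carbonic anhydrase Car3 rose by 0.40 ± 0.12 in WT and by 2.06 ± 0.12 in BKO. These differences passed in every fit that left out 1 WT library. BKO libraries were not left out in turn, so how far the differences rest on any 1 of them was not tested. Among 33 fatty acid oxidation genes 15 differed, all more negative in BKO, and 13 without ligated replicate 2 or 5. For complexes II to IV 15 of 27 differed, and 7 without ligated replicate 2 and 7 without ligated replicate 5.

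**Figure D5:**
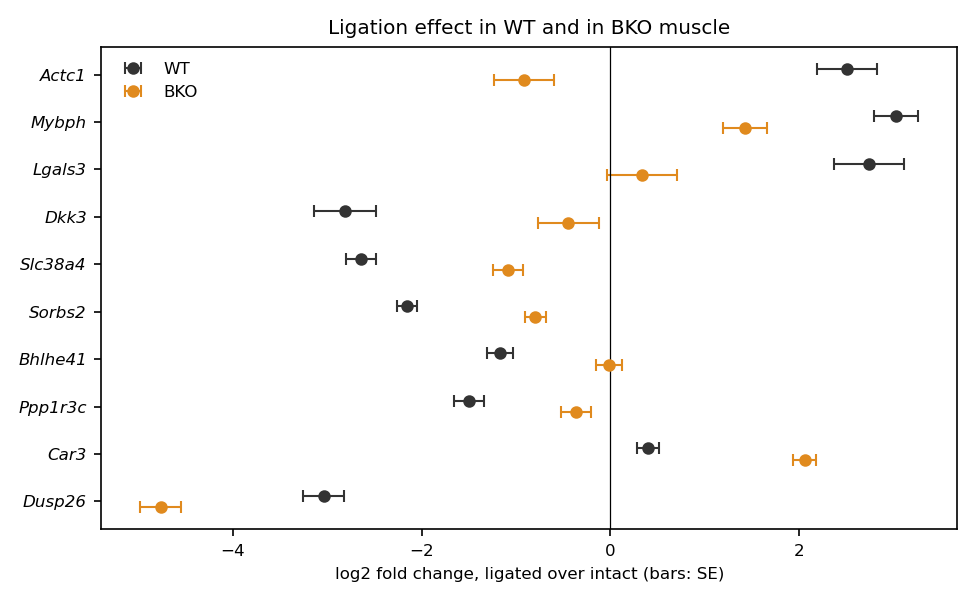
Log2 fold change of ligated over intact muscle (x axis, bars: SE) for 10 genes whose ligation effect differed between genotypes, in WT (dark) and BKO (orange). Actc1 lies at 2.51 ± 0.32 in WT and -0.92 ± 0.32 in BKO, on opposite sides of 0, and Bhlhe41 lies at -0.01 ± 0.14 in BKO.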

How the data were processed

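The authors deposited 1 table of signal values, normalized counts per gene, for 18 libraries. Per the submitters' processing notes, Trimmomatic 0.33, STAR 2.5.2, RSEM 1.3.3, DESeq2 and mm10 were used, with no roles given. No source used here gives the annotation or the strand setting. Per the labels, libraries were made with a stranded total RNA kit. In each library 100% of values were whole reads divided by 1 size factor (tolerance 0.001), so depth could be recovered. Values are not corrected for gene length. All 18 libraries entered 1 limma 3.58.1 fit (R 4.3.3) of log2(value + 1) with 4 group means and an intensity trend, and genes with a mean under 10 were left out. The filter averages all 18 libraries, so a gene with a mean under 10 in intact WT muscle was tested only if other libraries were higher. This favours rises among such genes. A gene passed at an adjusted p under 0.05. Fold changes on this scale understate those of low genes. The count tests edgeR 4.0.16 and DESeq2 1.42.0 were run on the recovered reads as alternatives, and edgeR with the authors' size factors called 2294 genes higher and 2574 lower. Only the main limma fit was tested on simulated counts, and the edgeR and DESeq2 fits were not. Alternatives were other pseudocounts, filters and scalings, WT libraries alone, the replicate block and leaving out each WT library. Of 20922 genes 20643 had a symbol and 20668 matched GENCODE M21, the source of the coordinates. RefSeq promoters (GRCm38.p6) matched 75.3% of tested symbols, too few to compare motif shares between changed and other genes.

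The comparison and the gene lists were chosen with earlier results of these data known. Genes were named by rule: the 20 largest rises and falls in log2 fold change with a mean of at least 50 and no overlap, the 10 largest rises and falls in value, the members of lowest p in a list (at most 4), and genes a sentence turns on. Named outside this rule, after their values were seen, were Pparg, Lep, Pecam1, Acta2, Myh11, Vegfa, Hbb-bs, Musk, Chrna1, Myog, Pax7, Myod1, Actc1, Myh1, Myh2, Myh7, Acta1, Dmd, Trim63, Smox, Ppargc1a, Fosb, Jun, Mki67, Dbp, Igf2, H19, Meg3, Rian, Mirg, Snord22 and mt-Co2. Intervals are 95%.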

Additional observations from a re-analysis of the deposited data

Results flagged for a closer look

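A sample lay far from the others of its group, by Dixon's criterion at 95%, in 26 of 530 groups of WT values tested, where chance flags about 1 in 20. Such samples, with their normalized counts, were Cyp2e1, WT ligated replicate 6 (339), Ighm, WT intact replicate 2 (403), Hbb-bs, WT intact replicate 6 (1276), Musk, WT intact replicate 6 (173), Chrna1, WT ligated replicate 6 (133), Itga7, WT ligated replicate 6 (895) and Myh6, WT ligated replicate 5 (0.871). Others were Myh2, WT ligated replicate 5 (6818), Kcnma1, WT ligated replicate 4 (100.3), Mstn, WT ligated replicate 5 (103), Psmc3, WT ligated replicate 4 (660.4), Hspb6, WT ligated replicate 5 (2301), Hsp90ab1, WT ligated replicate 2 (4844) and Nt5c1a, WT ligated replicate 5 (58.3). Further ones were Gpd2, WT intact replicate 6 (1589.6), Acsl5, WT intact replicate 3 (21.3), Sdhd, WT ligated replicate 4 (1269), Gabpa, WT intact replicate 5 (373), Rpl3, WT intact replicate 3 (281), Tubb2a, WT intact replicate 4 (51.2) and Jun, WT intact replicate 4 (1014). The same held for Ddit4, WT ligated replicate 4 (51.5), Lrtm2, WT intact replicate 3 (199), Ahnak, WT intact replicate 3 (14237), Nhs, WT ligated replicate 2 (8.10) and Meg3, WT intact replicate 3 (113).

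The effect of ligation differed between BKO and WT muscle for 46 of the named genes, by the interaction test with adjusted p under 0.05. The values are log2 fold changes in BKO minus those in WT. The differences were Trarg1 (-1.54), Lipe (-1.16), Plin4 (-0.65), Dpt (-0.71), Lyz2 (-0.96), Lgals3 (-2.41), Ccl6 (-2.02), Chrna1 (-0.83), Mybph (-1.60) and Actc1 (-3.43). Next came Mylk2 (0.56), Nexn (0.88), Camk2a (0.74), Sorbs2 (1.36), Map1lc3a (-0.55), Mstn (0.78), Odc1 (0.84), Ppp1r3c (1.13), Echs1 (-0.67) and Pcca (0.77). Then followed Hibadh (-0.51), Sdhd (-0.79), mt-Nd2 (0.97), mt-Nd4 (0.99), Uqcrfs1 (-0.49), Cyc1 (-0.46), Cox6a2 (-0.65), Atp5e (-0.46), Rps26 (-0.55) and Eif4g2 (0.39). Others were Fos (1.31), Jun (1.15), Arntl (2.21), Bhlhe41 (1.16), Ftl1 (-0.50), Kcnn2 (1.18), Dusp26 (-1.73), Car3 (1.66), Dkk3 (2.37) and Slc38a4 (1.55). Further ones were Pla2g7 (0.73), Atp13a5 (2.04), Ppp1r1a (-1.89), Slc8a1 (0.83), Plec (0.75) and Igf2 (1.06). Arntl is Bmal1, the gene deleted in BKO muscle, so its difference cannot be told apart from the deletion itself. Over all genes the number that differed was 737, and 402 without WT ligated replicate 2 and 461 without WT ligated replicate 5. Of the 46 named ones, 28 passed with no intensity trend, 28 with the replicate block, 29 without WT ligated replicate 2 and 31 without WT ligated replicate 5. Dpt, Lyz2 and Map1lc3a passed in only 1 of the 9 fits that left out a WT library, and Ftl1 and Igf2 in 2.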

How the results depend on the processing

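Counts were recomputed under every alternative. Genes higher and lower in ligated WT muscle, 2295 and 2585, were 2464 and 2413 with edgeR after TMM, 2294 and 2574 with edgeR and the authors' size factors, 2396 and 2552 with DESeq2 (4 adjusted p missing), 2260 and 2546 in WT libraries alone, 2278 and 2525 with no intensity trend and 2321 and 2527 after TMM. Scaled to CPM over all genes they were 2961 and 1111, and without mitochondrially encoded genes 4434 and 1144, and the cause was not tested. No gene called in the main analysis was called in the other direction in any setting. Genes higher by at least 2-fold, 716, were 1130 with no filter (20922 genes tested), 294 with a mean of at least 50 (8557 tested), 1081 as CPM over all genes and 1354 without mitochondrially encoded genes. Genes lower by at least 2-fold, 423, were 264 with a mean of at least 50 and 236 as CPM without mitochondrially encoded genes. Differences between genotypes, 737 genes, were 382 with the replicate block, 450 with no intensity trend, 1845 and 1297 in those 2 scalings and 1194 with DESeq2. Leaving out each WT library in turn gave 1971 to 2193 genes higher, 2286 to 2492 lower, 670 to 751 higher and 411 to 437 lower by at least 2-fold, and 402 to 978 that differed between genotypes. The ligated minus intact difference was then 6.93 to 9.34 percentage points for mt-Rnr2, -5.01 to -4.49 for mitochondrial mRNA, and -0.603 to 1.74 M for reads. With the replicate block 2077 genes were higher and 2357 lower. The labels do not say that a number marks 1 mouse, and same-numbered samples did not deviate together (correlations -0.0465, 0.00051, 0.0478 and -0.00597). Only number 5 correlated best with its own number. Of 5717 values of named genes under an alternative, 5683 kept direction and side of the threshold, 29 lost the call, 5 gained it and none reversed. Genes near the filter have few reads, and small changes in them were not detectable at this depth.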

Other observations

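A set of imprinted genes, which are read from only 1 parental copy and are known for roles in growth before birth, was higher in ligated WT muscle. These genes were chosen after their values were seen. The noncoding RNA H19 went from 1386 ± 349.9 to 2519 ± 493 normalized counts (means ± SD, n = 5 intact and n = 4 ligated; log2 fold change 0.88 ± 0.24, adjusted p from limma = 0.0069) and its neighbour Igf2, a growth factor, from 138 ± 31.9 to 415 ± 71.8 (1.60 ± 0.22). From another imprinted cluster Meg3 went from 68.4 ± 25.4 to 158 ± 50.4, Rian from 77.9 ± 32.8 to 231 ± 78.2 and Mirg from 4.74 ± 3.44 to 18.6 ± 11.999. Reads of neighbouring or overlapping RNAs of a cluster may be shared.

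Among the small nucleolar RNAs, Snord22 went from 4.69 ± 2.66 to 105 ± 8.06 (4.35 ± 0.42). Such RNAs lie inside introns of host genes, and reads of the 2 cannot be told apart with certainty.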
